A study of Homo sapiens with 16 samples.

Results

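The 35 genes described here encode amino acid transporters of the solute carrier (SLC) superfamily. They were taken from a list covering the SLC1, SLC3, SLC6, SLC7, SLC36, SLC38 and SLC43 families with a few members of SLC16, SLC25 and SLC66. They were chosen by family and function, but with earlier results of these data known. The shares of members called below are therefore descriptions set beside the background. All 35 were found among the 62754 genes counted, and 32 passed the count filter and were tested. The cells were LNCaP, an androgen-sensitive line derived from a metastasis of human prostate cancer, as wild type (WT) or with p53 knocked out by CRISPR (p53 KO). Each genotype was sampled with vehicle and with GCN2iB, which gives 4 groups of 4 libraries of total RNA, 16 in all. The vehicle was DMSO, GCN2iB was used at 5 µM, and treatment lasted 48 h in every group. All cells were kept in phenol-free RPMI-1640 with FBS, and no group was starved of an amino acid. The labels do not say whether the knockout line is a clone or a pool, nor whether replicates were separate cultures, so p-values measure only the spread between these libraries.

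GCN2 is a kinase that senses uncharged tRNA when amino acids run short. It phosphorylates the translation factor eIF2, which lowers general translation while raising that of the transcription factor ATF4, and ATF4 induces amino acid importers and biosynthetic enzymes. GCN2iB is an inhibitor of this kinase. Carriers differ in what they move. SLC7A5 exchanges large neutral amino acids such as leucine, SLC7A11 exchanges cystine for glutamate, SLC1A5 exchanges glutamine and other neutral amino acids, and SLC43A1 is a facilitated carrier of branched-chain amino acids that is abundant in prostate. The SLC7 light chains reach the plasma membrane bound to the heavy chain SLC3A2.

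Levels are given in CPM, counts scaled to a common library total, as mean ± SD of 4 libraries. Changes are log2 ratios from edgeR's quasi-likelihood test with their standard error (SE). A gene is said to rise or fall only at a Benjamini-Hochberg adjusted p under 0.05 over all 18549 tested genes. Total counts per library ran from 17418072 to 39915685. CDKN1A, a p53 target used here to check the genotype labels, was at 275 ± 21.1 CPM in untreated WT cells against 37.5 ± 3.73 CPM in untreated p53 KO cells. ATF4 fell with GCN2iB from 496 ± 40.2 to 213 ± 11.7 CPM in WT (adjusted p = 5.61e-12) and from 504 ± 33.5 to 284 ± 6.1 CPM in p53 KO (adjusted p = 6.28e-09). EIF2AK4, which encodes GCN2, stood between 112 ± 5.21 CPM (WT GCN2iB) and 138 ± 10.2 CPM (WT vehicle) over the 4 groups and fell 1.23-fold with GCN2iB in WT (adjusted p = 0.00629). The lowest value of any of 10 luminal prostate markers in any library was 194 CPM, and 5 of 6 immune and blood markers were under 1 CPM in every library. The summed luminal markers ran from 7219 to 7423 CPM in WT vehicle, 6286 to 6493 in WT GCN2iB, 6694 to 6810 in p53 KO vehicle and 5885 to 6274 in p53 KO GCN2iB. Of 6 stroma and endothelium markers 4 were under 1 CPM in every library, and the sum of all 6, mostly VWF and COL1A1, ran from 37.3 to 42.8 CPM in WT vehicle, 34.4 to 41.7 in WT GCN2iB, 25.6 to 29.9 in p53 KO vehicle and 23.6 to 26.7 in p53 KO GCN2iB. The sixth immune marker, LYZ, had group means of 0.0269 and 0.0681 CPM in WT and 0.839 and 0.7 CPM in p53 KO. The summed basal markers (4.22 to 5.79 CPM) and neuroendocrine markers (4.2 to 8.15 CPM) were low in all libraries. The part of these markers in the results below was not tested. WT GCN2iB replicate 4 lay at -18.26 on principal component 1, toward the p53 KO side, against -33.61 to -31.47 for the other 3 libraries of its group. On component 2, p53 KO GCN2iB replicate 4 lay at -30.55 against -13.87 to -10.92 for the rest of its group. Leaving out the first library gave 13 called members in place of 14 for GCN2iB in WT, and leaving out the second gave 12 in place of 12 for GCN2iB in p53 KO and 10 in place of 12 for p53 KO against WT under GCN2iB.

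The promoters of the members were searched for TGATGNAA on both strands (reverse complement TTNCATCA), the core of the composite element to which ATF4 and C/EBP factors bind. The windows ran from 250 bases before to 50 bases after each start site in RefSeq (GRCh38.p14). The table held 29 of the 35 members with 53 windows, since a gene can have several starts. The letters were found in 6 of these 53 windows (11.3%), 1 in each of 6 members, against 1270 of all 35116 windows (3.62%). Here 30 bases around each match are shown, 5′ to 3′ on the strand of the gene with the match in capitals. Of these 6 genes 4 fell with GCN2iB in both genotypes, and they are among 12 of the 32 tested members that did so. Those 32 include SLC1A2, SLC6A6, SLC7A2 and SLC7A11, which had no window in the table. How many of all genes with these letters fell in both genotypes was not computed, so the count is not compared with a background.
SLC1A5: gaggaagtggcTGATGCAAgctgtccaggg
SLC1A4: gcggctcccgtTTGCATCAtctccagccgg
SLC7A1: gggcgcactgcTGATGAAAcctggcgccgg
SLC38A1: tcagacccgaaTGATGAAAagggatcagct
SLC3A2: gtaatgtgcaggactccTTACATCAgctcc
SLC1A3: caggaaatgacTGATGCAAagcagggttaa

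The SLC1A5 stretch is chr19:46784893-46784922 (minus strand), with the match 97 to 90 bases before the start. That of SLC1A4 is chr2:64989381-64989410 (plus strand), and the match reaches from 7 bases before the start to base 1 after it. SLC7A1 (chr13:29595663-29595692, minus strand) holds its match at bases 8 to 15 after the start, and that of SLC38A1 (chr12:46266502-46266531, minus strand) spans its start. The SLC3A2 match (chr11:62881719-62881748, plus strand) lies 38 to 45 bases after its start, and the SLC1A3 match (chr5:36596357-36596386, plus strand) 220 to 213 bases before its start. These RefSeq starts lie inside the GENCODE span of the gene for SLC1A5, SLC1A4, SLC38A1 and SLC3A2 and outside it for SLC1A3. SLC1A3 and SLC3A2 did not pass the test with GCN2iB in either genotype. A match is a stretch of letters and was not tested for binding. SLC7A5, SLC6A9, SLC43A1, SLC7A8, SLC38A2, SLC38A7 and SLC38A10, which fell with GCN2iB in both genotypes, had no match in their windows. SLC38A9, which fell in WT, had none either, and SLC7A11 was not among the 29 members in the table.

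Per kb of exon, the members spanned several orders of magnitude in untreated WT cells. SLC25A39, a mitochondrial carrier needed for glutathione import, was highest at 76.4 CPM per kb. It was followed by SLC3A2 at 51.8, the glutamine and alanine importer SLC38A2 at 43.5, SLC1A5 at 42.8 and the creatine carrier SLC6A8 at 40.4 CPM per kb. Among the SLC3A2 light chains the order was SLC7A8 (28.9 CPM per kb), SLC7A11 (13.3), SLC7A5 (3.62), SLC7A6 (2.32) and SLC7A7 (0.113). SLC7A8 is, like SLC7A5, an exchanger of neutral amino acids, so the light chain most abundant in these cells as mRNA was not SLC7A5. Of the branched-chain carriers of the SLC43 family, SLC43A1 (22 CPM per kb) was above SLC43A2 (9.9 CPM per kb). SLC1A2, the glial glutamate carrier, the glutamine carrier SLC38A5 and SLC7A7 were the lowest of the tested members, each with group means under 1 CPM.

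**Figure D1:**
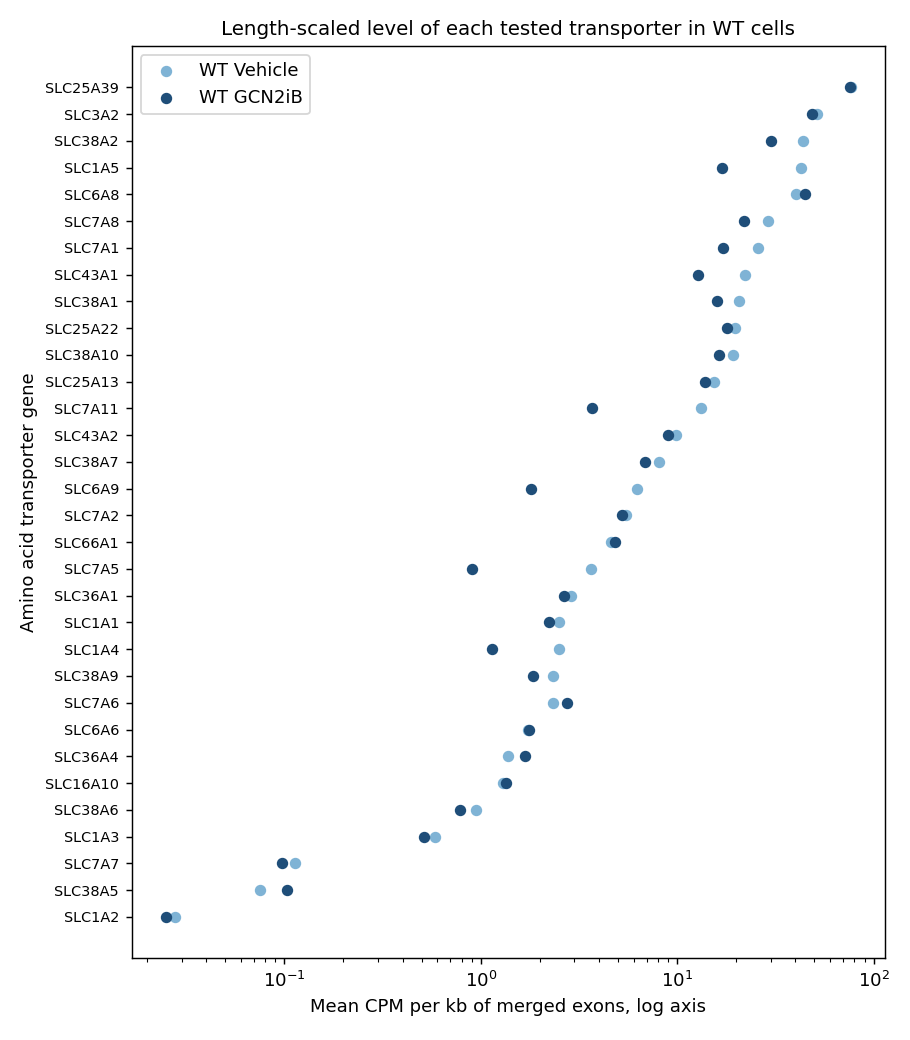
Level of each tested member in WT cells in CPM per kb of merged exon length (log axis). There is 1 mark each for the mean of 4 libraries of WT vehicle and of WT GCN2iB. SLC25A39 (76.4 in WT vehicle) and SLC3A2 (51.8) stand at the top and SLC1A2 (0.0277) at the bottom of the tested members.

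The remaining 3 members did not pass the filter. SLC6A15, a neuronal carrier of neutral amino acids, had 0 counts in all 16 libraries, and 3 counts, the limit that a count of 0 allows, correspond to 0.0717 to 0.173 CPM by library. SLC6A14, a broad epithelial importer, had 5 counts in all and no more than 2 in any library. SLC3A1, the heavy chain of the kidney cystine carrier, likewise had 5 counts in all and no more than 2 in any library. Such limits cover counting error only.

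GCN2iB against vehicle in WT cells asks which carriers change with inhibition of GCN2 while p53 is present. Of 32 tested members 13 fell and 1 rose, or 43.8%, where 25.2% of all tested genes were called (11.6% higher and 13.6% lower). The median log2 ratio of the 32 members was -0.17, against -0.03 over all genes. The falls of at least 1.5-fold were in 7 genes of the SLC1, SLC6, SLC7 and SLC43 families. They were SLC7A5, SLC7A11, SLC6A9, SLC1A5, SLC1A4, SLC43A1 and SLC7A1. The share of all genes called at this fold was not computed, so their number is not compared with the background. In bulk RNA, fewer cells with a transcript and less of it per cell cannot be told apart.

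SLC7A5 (ENSG00000103257, GRCh38 chromosome 16, 87830023 to 87869488, minus strand) read 17.8, 17.5, 16 and 17.5 CPM in replicates 1 to 4 of WT vehicle and 4.35, 3.8, 4.08 and 4.89 CPM in WT GCN2iB. Every treated library was far below every control, and the fall was 4-fold (log2 -2, SE 0.09, adjusted p = 2.07e-13). Its 4.89 CPM, the highest of the treated values, came from replicate 4, the library that stood apart on component 1. In p53 KO the gene read 18.1, 21.4, 20.3 and 20.9 CPM with vehicle and 7.43, 8.08, 8.24 and 8.09 CPM with GCN2iB. These groups did not overlap either, and the fall was 2.54-fold (log2 -1.35, SE 0.08, adjusted p = 1.53e-10).

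SLC7A11 (ENSG00000151012, chromosome 4, 138164097 to 138242349, minus strand), the cystine and glutamate antiporter whose import feeds glutathione synthesis, read 153, 126, 124 and 109 CPM in WT vehicle and 34.8, 34.6, 33.9 and 38.2 CPM in WT GCN2iB. The controls were widely spread but all lay well above the treated libraries, a 3.61-fold fall (log2 -1.85, SE 0.11, adjusted p = 7.02e-11). In p53 KO it read 173, 146, 137 and 123 CPM with vehicle and 62.1, 59.6, 64.9 and 49.5 CPM with GCN2iB. It fell 2.45-fold there (log2 -1.30, SE 0.10, adjusted p = 1.76e-08). Its exons overlap those of SLC7A11-AS1 on the opposite strand over 8.97% of their bases, but the antisense gene had 144 counts in all libraries against 48749 for SLC7A11.

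SLC6A9 (ENSG00000196517, chromosome 1, 43991500 to 44031467, minus strand) imports glycine. It read 30.4, 35.5, 32.3 and 31.3 CPM in WT vehicle and 8.94, 9.75, 9.03 and 9.39 CPM in WT GCN2iB. The treated libraries lay within 1 CPM of each other, and the fall was 3.5-fold (log2 -1.81, SE 0.08, adjusted p = 3.13e-13). In p53 KO the gene read 30.1, 37.9, 36.2 and 39.0 CPM with vehicle and 11.6, 12.8, 12.6 and 12.4 CPM with GCN2iB, a 2.9-fold fall (log2 -1.54, SE 0.08, adjusted p = 1.1e-11). Part of its exons (7.83% of bases) overlaps CCDC24 on the opposite strand, which had about as many counts (12216 against 12027). The strand setting of the counting is not given in the sources used here, so reads in that stretch cannot be assigned.

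SLC1A5 (ENSG00000105281, chromosome 19, 46774883 to 46788594, minus strand), whose promoter stretch is shown above, read 128, 148, 142 and 153 CPM in WT vehicle and 57.5, 55.6, 54.9 and 56.9 CPM in WT GCN2iB. Without overlap, it fell 2.54-fold (log2 -1.34, SE 0.08, adjusted p = 2.27e-11). In p53 KO it read 125, 149, 138 and 161 CPM with vehicle and 60.4, 60.2, 58.6 and 70.3 CPM with GCN2iB, a 2.3-fold fall (log2 -1.20, SE 0.08, adjusted p = 2.26e-10). SLC1A4 (ENSG00000115902, chromosome 2, 64988477 to 65023865, plus strand), the related carrier of alanine, serine and cysteine, read 17.2, 18.1, 17.4 and 16.5 CPM in WT vehicle and 7.42, 8.54, 7.8 and 7.83 CPM in WT GCN2iB. It fell 2.19-fold (log2 -1.13, SE 0.08, adjusted p = 2.01e-09). In p53 KO it read 21.3, 22.2, 20 and 20.8 CPM with vehicle and 11.2, 10.7, 13.6 and 10.6 CPM with GCN2iB, a 1.85-fold fall (log2 -0.88, adjusted p = 5.9e-08). The glutamate carriers of the same family stood lower and did not pass the test in any comparison, with SLC1A1 between 8.82 ± 0.38 and 9.98 ± 0.637 CPM and SLC1A3 between 3.23 ± 0.495 and 3.67 ± 0.404 CPM over the 4 group means. SLC1A2 did not pass in any either.

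SLC43A1 (ENSG00000149150, chromosome 11, 57484534 to 57515786, minus strand) read 69.5, 82.1, 78.4 and 81.4 CPM in WT vehicle and 46.1, 43.5, 43.8 and 48.1 CPM in WT GCN2iB, a fall of 1.72-fold (log2 -0.78, SE 0.07, adjusted p = 2.44e-08). In p53 KO it read 99.9, 116, 109 and 115 CPM with vehicle and 78.9, 75.9, 73.3 and 82.6 CPM with GCN2iB, a 1.41-fold fall (log2 -0.50, SE 0.07, adjusted p = 1.27e-05). The treated p53 KO libraries thus overlapped the untreated WT libraries. SLC7A1 (ENSG00000139514, chromosome 13, 29509410 to 29595688, minus strand), the importer of arginine and lysine, read 206, 205, 205 and 175 CPM in WT vehicle and 130, 139, 132 and 123 CPM in WT GCN2iB. It fell 1.51-fold (log2 -0.59, SE 0.07, adjusted p = 2.61e-06). In p53 KO it read 181, 193, 195 and 176 CPM with vehicle and 132, 126, 135 and 108 CPM with GCN2iB, a 1.49-fold fall (log2 -0.58, adjusted p = 5.29e-06). SLC7A2, the other cationic carrier tested, did not pass in WT, with 43.3 ± 4.65 CPM under vehicle and 41.2 ± 2.89 CPM under GCN2iB.

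**Figure D2:**
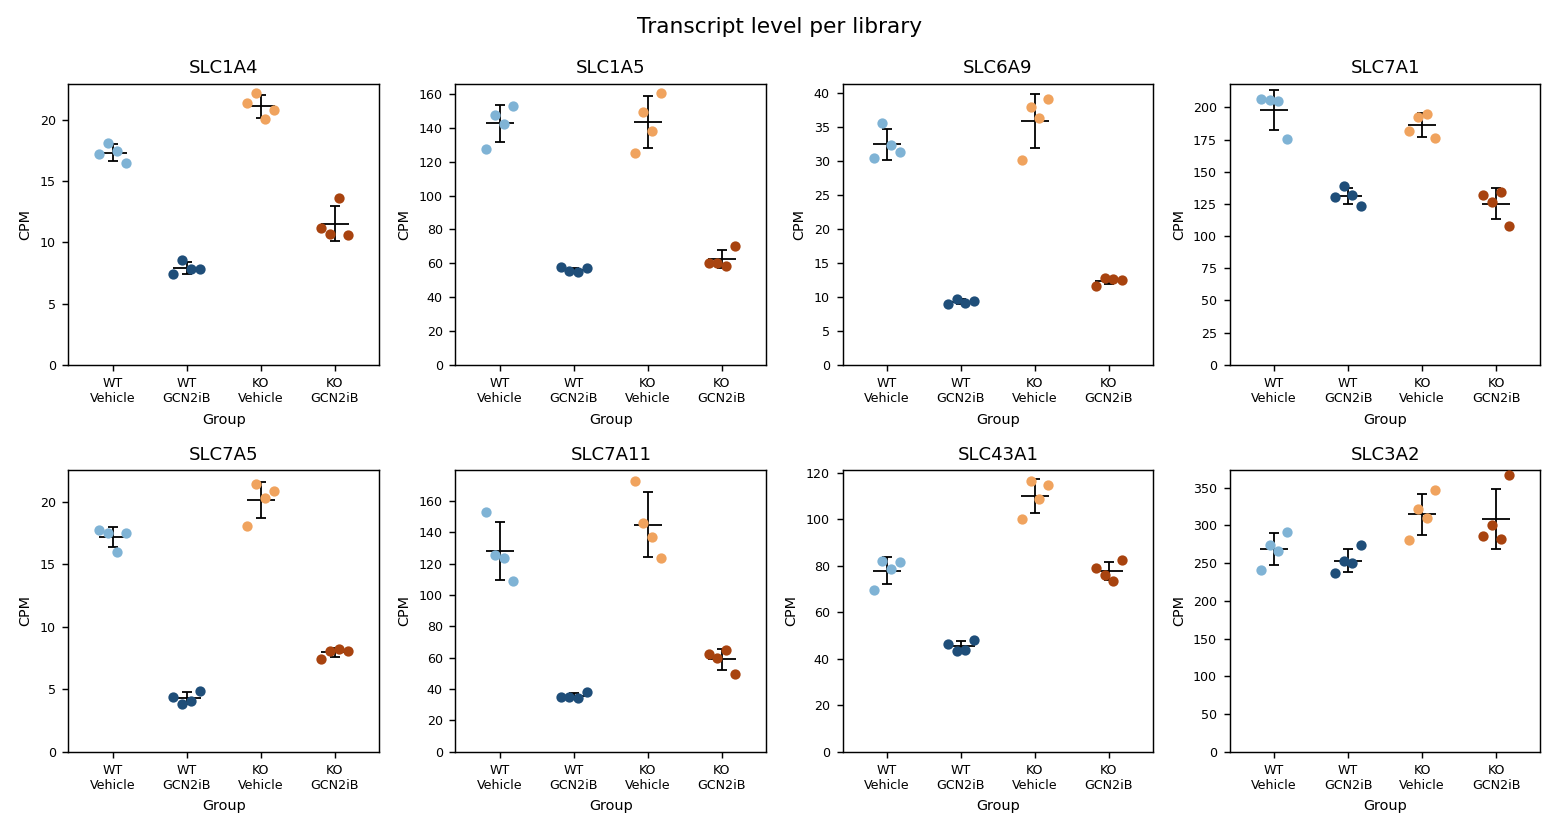
CPM of the 7 members with at least a 1.5-fold called change and of SLC3A2 in each of the 16 libraries, by group, with 1 point per library and a bar at the group mean. In each of the 7 the GCN2iB libraries lie below the vehicle libraries of their genotype, as SLC7A5 at 3.8 to 4.89 CPM against 16 to 17.8 CPM in WT, while the SLC3A2 groups overlap.

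Smaller falls were spread over the SLC38 family and SLC7A8. SLC38A2, which imports glutamine, alanine and serine with sodium, went from 287 ± 36 to 199 ± 6.36 CPM in WT (1.44-fold lower, adjusted p = 0.00012) and from 297 ± 31.8 to 212 ± 23.8 CPM in p53 KO (1.4-fold, adjusted p = 0.000354). Its neighbour and paralog SLC38A1, which lies 88.2 kb away on chromosome 12, went from 207 ± 25.1 to 160 ± 6.25 CPM in WT (1.3-fold, adjusted p = 0.00306) and from 182 ± 17.8 to 141 ± 16.3 CPM in p53 KO (1.3-fold, adjusted p = 0.0037). SLC38A7, a lysosomal glutamine exporter, fell 1.18-fold in each genotype (adjusted p = 0.00659 in WT and 0.00733 in p53 KO). SLC7A8 fell from 173 ± 11.9 to 132 ± 10.6 CPM in WT and from 176 ± 13.2 to 135 ± 5.53 CPM in p53 KO, 1.31-fold in both (adjusted p = 0.000226 and 0.000318).

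SLC38A10 fell 1.18-fold in WT (adjusted p = 0.028) and 1.2-fold in p53 KO (adjusted p = 0.0161), but these calls were borderline. In WT it was lost on omission of WT vehicle replicate 2, 3 or 4 or of any 1 of the WT GCN2iB libraries (adjusted p = 0.0541 to 0.122), and in p53 KO without vehicle replicate 4 or GCN2iB replicate 2 or 3 (0.0536 to 0.055). SLC38A5 and SLC38A6 did not pass in any comparison, the latter at 4.04 ± 0.395 to 5.47 ± 1.01 CPM.

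Of the 4 members listed as lysosomal or proton coupled, 1 fell, 1 rose and 2 did not pass in WT. SLC38A9, a lysosomal arginine sensor that signals to mTORC1, read 21.6, 20.4, 19.7 and 20.6 CPM in WT vehicle and 16.7, 15.4, 17.1 and 16.2 CPM in WT GCN2iB, a 1.26-fold fall (log2 -0.33, SE 0.07, adjusted p = 0.000868). It was the only one of the 13 genes that fell in WT without a call in p53 KO (14.8 ± 0.565 and 13.8 ± 0.722 CPM, adjusted p = 0.31), and the difference between the genotypes did not pass its own test (adjusted p = 0.467). SLC36A4, a high-affinity carrier of proline and tryptophan, was the single member that rose, from 13.4 ± 1.72 to 16.2 ± 0.44 CPM (1.22-fold, adjusted p = 0.0302). It lost that call on omission of WT vehicle replicate 3 (adjusted p = 0.086), WT vehicle replicate 4 (0.0565) or WT GCN2iB replicate 3 (0.0538), and with library totals as the only scaling (0.0605). SLC36A1, a proton-coupled carrier of small amino acids, and SLC66A1, a lysosomal exporter of cationic amino acids, did not pass (20.2 ± 1.99 and 18.6 ± 0.546 CPM for SLC36A1, 12.3 ± 0.143 and 12.9 ± 0.755 CPM for SLC66A1).

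Members with no call under GCN2iB in either genotype included some of the most abundant. The mitochondrial carriers SLC25A39 (269 ± 26.4 and 267 ± 13.4 CPM in WT), SLC25A22 of glutamate (92 ± 8.88 and 83.2 ± 3.93 CPM) and SLC25A13 of aspartate and glutamate (57 ± 2.35 and 51.3 ± 3.74 CPM) were 3 of these. The creatine carrier SLC6A8 (222 ± 18.5 and 247 ± 16 CPM) and the taurine carrier SLC6A6 (14.4 ± 1.24 and 14.4 ± 1.18 CPM) did not pass either, although they belong to the same family as SLC6A9. Nor did SLC16A10, a carrier of aromatic amino acids, or SLC43A2.

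In p53 KO cells 12 of the 32 members fell with GCN2iB and 0 rose in edgeR, or 37.5% against 20.1% of all tested genes (11.4% higher and 8.71% lower). At an unadjusted p under 0.05, 1 member was higher (3.12% against 17.1% of all genes), and DESeq2 and limma voom also called 0 higher. All 12 had also fallen in WT, and the share of all genes that fell in both genotypes was not computed. The median log2 ratio was -0.10 for the members and -0.01 for all genes. With library totals as the only scaling, the share of higher genes among all calls went from 56.7% to 34.4%, and the members then gave 0 higher and 13 lower.

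**Figure D3:**
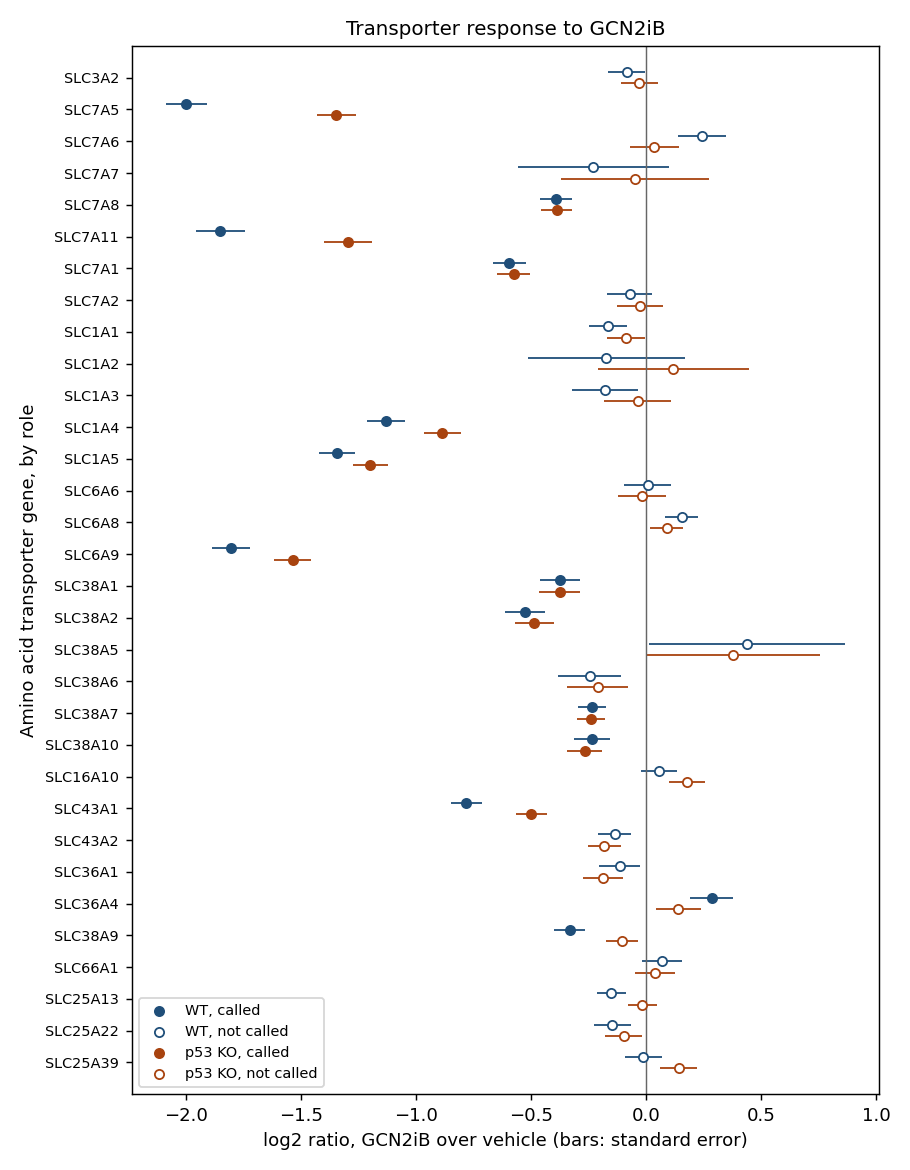
Log2 ratio of GCN2iB over vehicle for each of the 32 tested members in WT and in p53 KO cells (bars, SE). SLC7A5 has the lowest ratio in WT (-2) and SLC6A9 in p53 KO (-1.54). Most of the large falls are smaller in p53 KO, a pattern that picking genes by their fall in WT itself favours. In edgeR 0 of the 32 members passed the test of the difference between the genotypes.

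Whether the response to GCN2iB differs between the genotypes was tested as the difference of both log2 ratios. The difference was positive, toward a smaller fall or a larger rise in p53 KO, in 21 of 32 members (65.6%) and in 54.8% of all genes. In edgeR 0 of 32 members passed the test of the difference (1 gene of 18549, or 0.00539%, passed it). Of the 13 members chosen by their fall in WT, 10 fell less in p53 KO, a count that this choice itself favours. At an unadjusted p under 0.05 there were 6 members (18.8%, against 9.46% of all genes), namely SLC7A5, SLC7A11, SLC43A1, SLC38A9, SLC6A9 and SLC1A4, each with a smaller fall in p53 KO. limma voom called 0 members and DESeq2 called 1, SLC7A5 (adjusted p = 0.00355). SLC7A5 had the largest difference, 0.65 on the log2 scale (SE 0.12), with an adjusted p of 0.0526 in edgeR. It passed without WT GCN2iB replicate 1 (adjusted p = 0.0408) or WT GCN2iB replicate 4 (0.0369) and when both GCN2iB replicate 4 libraries were left out (0.0377). SLC7A5 also passed with no count filter (0.0198), with the replicate block (0.0119) and with GC and length trends removed (0.0114). SLC7A11 differed by 0.56 (SE 0.15, adjusted p = 0.305), and it passed in the same 3 settings (0.00164, 0.0334 and 6.92e-05, in that order). SLC43A1 differed by 0.28 (SE 0.09, adjusted p = 0.355). For ATF4 the difference was 0.40 (SE 0.09, adjusted p = 0.225). Its part in the carriers' values was not tested.

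SLC3A2 (ENSG00000168003, chromosome 11, 62856102 to 62888875, plus strand), the heavy chain that the light chains share, read 241, 274, 266 and 292 CPM in WT vehicle and 237, 252, 250 and 274 CPM in WT GCN2iB. In p53 KO it read 281, 322, 310 and 347 CPM with vehicle and 286, 301, 282 and 367 CPM with GCN2iB. The treated and control libraries overlapped in both genotypes, and the log2 ratios of -0.08 (SE 0.08, adjusted p = 0.492) and -0.03 (SE 0.08, adjusted p = 0.85) did not pass. When a trend on GC content and length was removed, SLC3A2 passed in WT with a log2 ratio of -0.13 (adjusted p = 0.0143). Light chain mRNA relative to SLC3A2, both per kb, is given next as a description. The ratio for SLC7A5 was 0.0703 ± 0.00705 in WT vehicle and 0.0184 ± 0.00164 in WT GCN2iB, and 0.0701 ± 0.00305 and 0.0284 ± 0.00324 in p53 KO. That for SLC7A11 was 0.259 ± 0.0589 and 0.0751 ± 0.0027 in WT, and 0.25 ± 0.0579 and 0.105 ± 0.0226 in p53 KO. For both light chains the untreated genotypes differed by less than their SD and the p53 KO mean was the higher one with GCN2iB. For SLC7A11 these treated groups overlapped, since p53 KO GCN2iB replicate 4, which stood apart on component 2, read 0.0725. That is below every WT GCN2iB library (0.0729 to 0.079). SLC7A8 kept the largest ratio of the light chains in every group, from 0.383 ± 0.0569 in p53 KO GCN2iB to 0.559 ± 0.0437 in WT vehicle. SLC7A6 had its highest ratio in WT GCN2iB (0.0564 ± 0.00709). The SLC7A6 log2 ratio with GCN2iB in WT, 0.24, did not pass in the main fit (adjusted p = 0.0954) but passed in 5 of 18 alternatives. Its exons overlap SLC7A6OS on the opposite strand over 44.4% of their bases, so its ratio is uncertain.

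**Figure D4:**
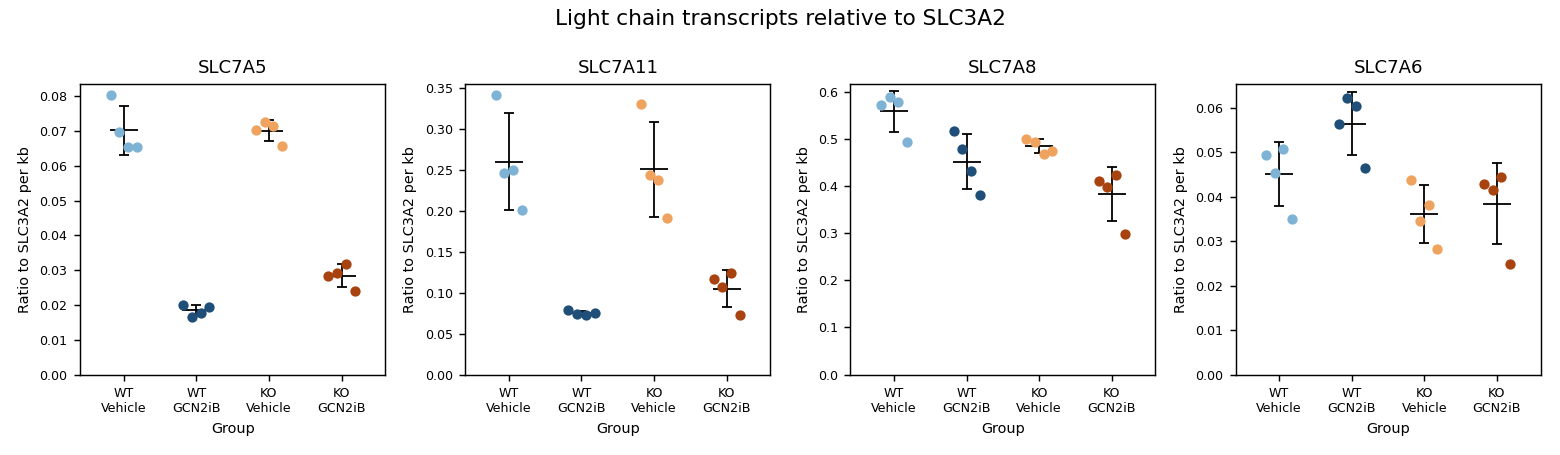
Ratio of light chain mRNA to SLC3A2 mRNA, both in CPM per kb, for SLC7A5, SLC7A11, SLC7A8 and SLC7A6, 1 point per library by group with a bar at the mean. The SLC7A5 ratio is 0.0703 in WT vehicle and 0.0184 in WT GCN2iB, and 0.0284 in p53 KO GCN2iB.

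The effect of losing p53 was first compared without GCN2iB. Under vehicle 5 members were higher and 4 lower in p53 KO than in WT, or 28.1% of 32, where 21.7% of all tested genes were called (9.63% higher and 12.1% lower). The share of members called is near the background, and each change was under 1.5-fold. SLC43A1 was 1.41-fold higher (110 ± 7.4 against 77.8 ± 5.79 CPM, adjusted p = 5.97e-06), SLC36A1 1.37-fold higher (27.6 ± 2.26 against 20.2 ± 1.99 CPM, adjusted p = 0.000508) and SLC1A4 1.22-fold higher (21.1 ± 0.919 against 17.3 ± 0.678 CPM, adjusted p = 0.00958). SLC38A9 was 1.39-fold lower (14.8 ± 0.565 against 20.6 ± 0.775 CPM, adjusted p = 1.16e-05) and SLC43A2 1.23-fold lower (85.1 ± 7.88 against 105 ± 6.92 CPM, adjusted p = 0.00326). The branched-chain carriers SLC43A1 and SLC43A2 therefore moved in opposite directions. ATF4 did not pass in this comparison (adjusted p = 0.853).

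The other 4 calls under vehicle were borderline. SLC3A2 and SLC7A5 were each 1.17-fold higher (adjusted p = 0.0437 and 0.0365), SLC6A6 was 1.23-fold lower (adjusted p = 0.0361) and SLC25A39 1.17-fold lower (adjusted p = 0.0446). The number of members called dropped from 9 to 5 without WT vehicle replicate 2, p53 KO vehicle replicate 2 or p53 KO vehicle replicate 3. SLC3A2 lost its call on omission of WT vehicle replicate 1, 2 or 3 or p53 KO vehicle replicate 2, 3 or 4 (adjusted p = 0.0767 to 0.149), and SLC7A5 on omission of WT vehicle replicate 2, 3 or 4 or p53 KO vehicle replicate 2, 3 or 4 (0.0607 to 0.138). SLC6A6 lost it on omission of WT vehicle replicate 2 or 3 or p53 KO vehicle replicate 2, 3 or 4 (0.0667 to 0.123). SLC25A39 lost its call without WT vehicle replicate 2, 3 or 4 or p53 KO vehicle replicate 1, 2 or 3 (0.0655 to 0.153). Calls also ended in other settings, namely SLC7A5 with no count filter (0.119), SLC6A6 with library totals (0.115) or a mean of at least 50 counts (0.0672), and SLC25A39 with both of these (0.115 and 0.0993) or the compared groups alone (0.0876). With library totals as the only scaling the share of higher genes among all calls went from 44.4% to 60.8%, and the members gave 6 higher and 2 lower.

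Under GCN2iB, where the same genotypes were compared in treated cells, 7 members were higher and 5 lower in p53 KO than in WT, or 37.5% against 23.9% of all tested genes (12.7% higher and 11.2% lower). The median log2 ratio was 0.02 for the members and 0.03 for all genes. The 3 differences of at least 1.5-fold were in SLC7A5, SLC43A1 and SLC7A11, all higher in p53 KO. Here too the share of all genes called at this fold was not computed. SLC7A5 stood at 7.96 ± 0.363 CPM against 4.28 ± 0.466 CPM in WT (1.85-fold, log2 0.89, adjusted p = 2.1e-07), and its lowest p53 KO library (7.43 CPM) was above the highest WT library (4.89 CPM). SLC43A1 stood at 77.7 ± 3.99 against 45.3 ± 2.15 CPM (1.71-fold, adjusted p = 1.08e-08) and SLC7A11 at 59 ± 6.7 against 35.4 ± 1.9 CPM (1.66-fold, adjusted p = 2.22e-05). These values use the same treated libraries as the GCN2iB comparisons above and are not separate evidence.

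SLC1A4 was 1.45-fold higher (11.5 ± 1.4 against 7.9 ± 0.466 CPM, adjusted p = 5.92e-05), and SLC6A9 was 1.33-fold higher (12.4 ± 0.517 against 9.28 ± 0.37 CPM, adjusted p = 0.00111). SLC1A5 and SLC7A1 did not pass here (62.3 ± 5.34 against 56.2 ± 1.23 CPM and 125 ± 12.1 against 131 ± 6.43 CPM). SLC36A1 was 1.3-fold higher (adjusted p = 0.00288), as it was with vehicle. ATF4 was 1.34-fold higher in p53 KO under GCN2iB (adjusted p = 3.99e-05), and its target CHAC1, which breaks down glutathione, 1.62-fold higher (adjusted p = 0.00207). The part of these in the carriers' levels was not tested.

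The 5 members lower in p53 KO under GCN2iB were SLC36A4 (1.31-fold, adjusted p = 0.00385), SLC43A2 (1.27-fold, adjusted p = 0.001), SLC6A6 (1.26-fold, adjusted p = 0.0234), SLC7A6 (1.23-fold, adjusted p = 0.0433) and SLC38A9 (1.19-fold, adjusted p = 0.0101). SLC7A6 encodes the light chain that exchanges arginine for neutral amino acids, and 44.4% of its exon bases overlap SLC7A6OS on the opposite strand, so its counts are uncertain. Its call ended without WT GCN2iB replicate 2 (adjusted p = 0.12), WT GCN2iB replicate 3 (0.0943) or p53 KO GCN2iB replicate 4 (0.145), without both GCN2iB replicate 4 libraries (0.0781), and with library totals (0.0768). The SLC6A6 call ended without WT GCN2iB replicate 2 (0.072) or p53 KO GCN2iB replicate 4 (0.0856), or without both GCN2iB replicate 4 libraries (0.123). SLC3A2 was 1.22-fold higher (adjusted p = 0.0121), a call that ended without WT GCN2iB replicate 1 (0.0633) or 3 (0.0525). The same genotype call was made under both treatments for SLC1A4, SLC3A2, SLC7A5, SLC36A1 and SLC43A1 (higher) and for SLC6A6, SLC38A9 and SLC43A2 (lower). Of these, SLC3A2 and SLC6A6 lost calls in some alternatives under both treatments, and SLC7A5 under vehicle. The share of all genes with the same call under both treatments was not computed.

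**Figure D5:**
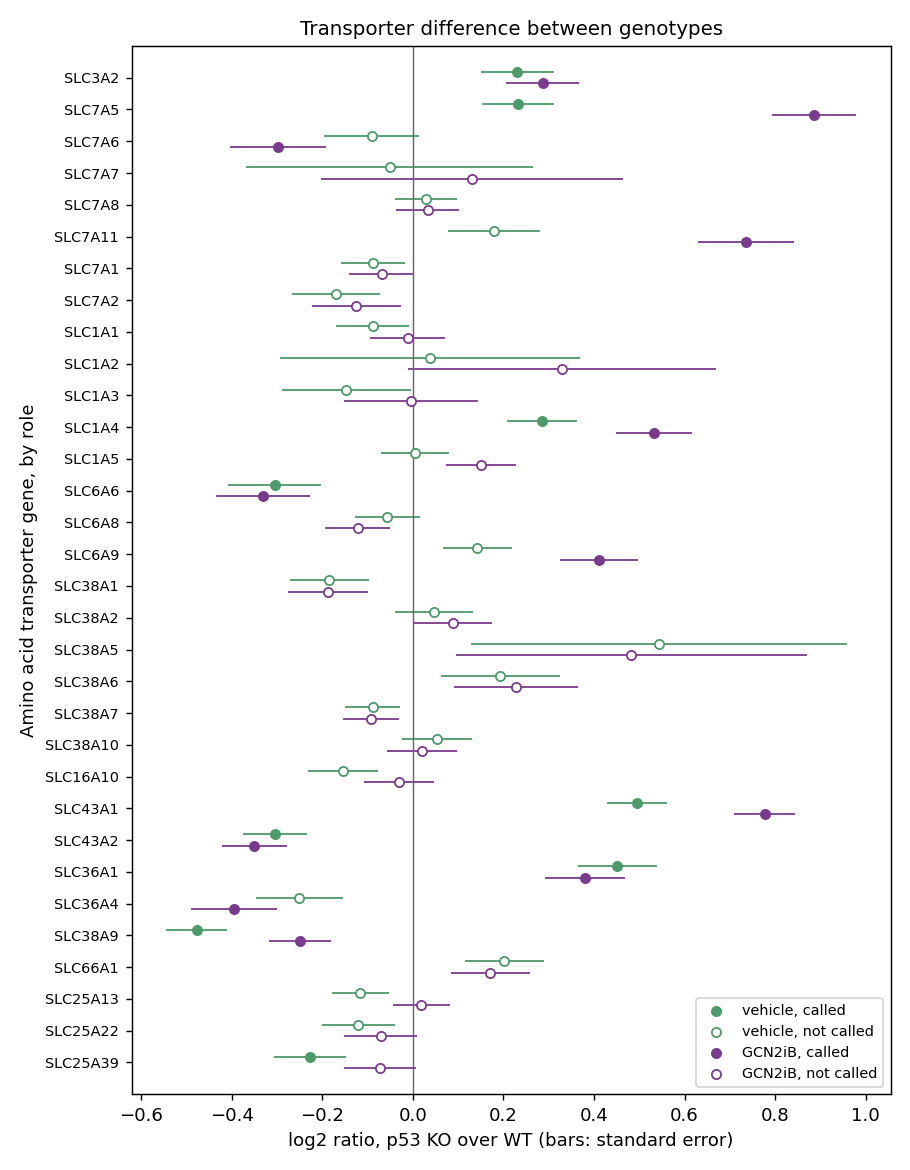
Log2 ratio of p53 KO over WT for each of the 32 tested members under vehicle and under GCN2iB (bars, SE). SLC7A5 (0.89), SLC43A1 (0.78) and SLC7A11 (0.74) are the highest under GCN2iB, and SLC38A9 (-0.48) is the lowest under vehicle.

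A further 42 amino acid carriers outside the list were counted for comparison, of which 20 were tested. With GCN2iB, 5 fell and 0 rose in WT (0 higher at an unadjusted p under 0.05, where 16.6% of all genes were, 1 in DESeq2 and 0 in limma voom), and 3 fell and 3 rose in p53 KO. Against WT, p53 KO had 1 higher and 4 lower under vehicle and 3 higher and 2 lower under GCN2iB. Over all genes 25.2%, 20.1%, 21.7% and 23.9% were called in these comparisons, in that order, so 5 or 6 edgeR calls among 20 carriers are near the background. The directions in the last of these comparisons depended on the test, with 2 higher and 5 lower in DESeq2 and 2 higher and 3 lower in limma voom. SLC38A4, a carrier of neutral and cationic amino acids 392 kb from SLC38A2, was the only one of these with a called change of at least 1.5-fold. Its mean was 4.16 ± 0.458 CPM in WT vehicle, 2.35 ± 0.214 in WT GCN2iB, 7.14 ± 1.7 in p53 KO vehicle and 4.24 ± 0.6 in p53 KO GCN2iB. It fell 1.76-fold with GCN2iB in WT (adjusted p = 0.000762) and 1.69-fold in p53 KO (adjusted p = 0.000746), and it was higher in p53 KO by 1.72-fold under vehicle (adjusted p = 0.000344) and by 1.8-fold under GCN2iB (adjusted p = 0.000511).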

How the data were processed

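The authors deposited raw read counts per gene, not normalized, for 62754 genes in 16 libraries. Tools listed in the submitters' processing notes were Trim Galore, HISAT2, featureCounts and DESeq2, with the build GRCh38. Their versions, the annotation release and the strandedness were not given in the sources used here.

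Symbols matched 42343 identifiers, and positions and exon lengths came from GENCODE release 29 (58261 identifiers). Tests used edgeR 4.0.16 in R 4.3.3 (filterByExpr, which kept at least 99.906% of the counts of each library, TMM scaling, robust quasi-likelihood fit with 1 term per group over all 16 libraries, two-sided tests, Benjamini-Hochberg over 18549 genes per contrast). No pair of libraries agreed within sampling noise. The procedure was tested on simulated data. CPM are edgeR's on the scaled totals. Higher precision goes with the deeper libraries (17418072 to 39915685 counts).

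Every member is accounted for. Library values were given for members called in at least 1 comparison with a 1.5-fold change and, chosen after their values were seen, for SLC3A2 and SLC38A9, and other carriers were named by the same fold. The members and lists were chosen with earlier results of these data known. Alternatives were DESeq2 1.42.0 size factors and test, library totals, 2 other count filters, limma 3.58.1 voom, the compared groups alone, a replicate block, each library left out, the stricter motif TGATGCAA and, chosen after seeing the data, omission of both replicate 4 libraries of GCN2iB and removal of GC and length trends.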

Additional observations from a re-analysis of the deposited data

Results flagged for a closer look

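In 128 groups of 4 libraries (32 members in 4 groups) the highest or lowest value was compared with the gap to the rest by Dixon's criterion, and 4 stood apart, where chance alone marks about 1 group in 20. SLC1A5 in p53 KO GCN2iB replicate 4 was the highest at 70.3 CPM, with the others between 58.6 and 60.4 CPM. SLC7A6 in the same library was the lowest at 13.4 CPM, with the others between 17.9 and 18.4 CPM. SLC7A1 in WT vehicle replicate 4 was the lowest at 175 CPM against 204.9 to 206 CPM. SLC7A5 in WT vehicle replicate 3 was the lowest at 16 CPM against 17.5 to 17.8 CPM. The calls of SLC1A5, SLC7A1 and SLC7A5 with GCN2iB held without each of these libraries, and the lower SLC7A6 level in p53 KO than in WT under GCN2iB lost its call without p53 KO GCN2iB replicate 4 (adjusted p = 0.145).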

How the results depend on the processing

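Of 47 member calls over the comparisons, 37 held in every alternative run for them and 10 were lost in at least 1, with 0 reversed, and of 113 values that did not pass 26 passed in at least 1 alternative. Leaving out each library in turn gave 12 to 14 members called for GCN2iB in WT, 11 to 14 for GCN2iB in p53 KO, 5 to 12 for the genotype under vehicle, 10 to 13 for the genotype under GCN2iB and 0 to 1 for the difference between the responses. Removing GC and length trends gave 16 members for the genotype under vehicle (31.5% of all genes, 21.7% without it) and 2 for the difference between the responses. That difference gave 2 with no count filter, 1 with the DESeq2 test, 2 with the replicate block and 1 when both GCN2iB replicate 4 libraries were left out, all of them SLC7A5 or SLC7A11. The causes were not tested. The stricter motif was found in 3 members, SLC1A3, SLC1A4 and SLC1A5. It was in 3 of 53 member windows (5.66%) and in 304 of all 35116 windows (0.866%). The labels name no pairing by replicate number, so the numbers were not treated as pairs. Residuals correlated above 0.1 in 5 of 24 same-number pairs (median 0.0366, against -0.0107 for pairs of different numbers). The best correlation of a library was with its own number in 13 of 16. That is a hint from the data of something shared within a number, and the p-values of the main fit take no account of it. The replicate block gave 18, 14, 12, 13 and 2 calls where the fit without it gave 14, 12, 9, 12 and 0, and lost 0 of them, with 33.1%, 28.6%, 28.1%, 31.1% and 0.329% of all genes called. SLC3A1, SLC6A14 and SLC6A15 did not pass the count filter of the main fit. With no count filter 34 members were tested, all but SLC6A15, which had 0 counts in all 16 libraries.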
